A study of Mus musculus with 2 samples.

Results

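The miR-26 family was followed in old mouse heart through its 3 genes, Mir26a-1, Mir26a-2 and Mir26b, each of which lies in an intron of a Ctdsp gene. They were taken by gene name from the 2202 miRNA genes counted, so all 3 of 3 named members were found. The rule uses names and positions, not counts, though earlier results of these data were known when the family was picked. The tissue was heart of male mice of the hybrid strain B6CASTF1/J, adult and aged 18 to 20 months, with no treatment or other genotype named in the labels. There were 2 small RNA libraries in 1 group, called replicates 1 and 2 here after the labels. Each has its own biosample record and both share 1 donor record, so the spread between them may be technical, and no comparison between conditions can be made. The values are counts of reads on the sense strand of each miRNA gene.

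MicroRNAs (miRNAs) are RNAs of about the length of the sequences printed below, cut from hairpin precursors, and they repress messenger RNAs that pair with their seed, bases 2 to 8 of the mature strand. The miR-26 family is known for repressing Ezh2, a histone methyltransferase, and in the heart for acting on the potassium channel gene Kcnj2 and on growth and fibrosis pathways. The host genes Ctdsp1, Ctdsp2 and Ctdspl encode small phosphatases of the C-terminal domain of RNA polymerase II, which are also known for keeping neuronal genes silent outside neurons. Messenger RNAs of the hosts are not measured in these libraries.

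The mature sequences decide what a count at each gene can hold, and they are given as RefSeq lists them (build GRCm38.p6), with the seed in capitals. Both miR-26a genes make the same 5p strand.
mmu-miR-26a-5p: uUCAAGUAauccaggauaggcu
mmu-miR-26b-5p: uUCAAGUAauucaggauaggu
mmu-miR-26a-1-3p: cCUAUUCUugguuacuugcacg
mmu-miR-26a-2-3p: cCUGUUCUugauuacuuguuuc
mmu-miR-26b-3p: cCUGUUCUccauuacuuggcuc

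All 3 genes thus share the 5p seed, UCAAGUA. Of 1738 mature miRNA entries searched, no other gene had it. Counted from 1 at the 5′ end of miR-26a-5p, the 5p strand of Mir26b differed at C11U and C21U and was 21 rather than 22 bases long. The 3p strands were less alike. Between miR-26a-1-3p and miR-26a-2-3p there were 6 substitutions, of which A4G lies in the seed, so the 2 copies differ in their 3p seed. The 3p seed of Mir26a-2, CUGUUCU, was the same as that of Mir26b, with 4 substitutions elsewhere (U9C, G10C, U19G and U20C, from miR-26a-2-3p to miR-26b-3p). It also occurs in miR-6932-3p and miR-7039-3p, while the seed of miR-26a-1-3p occurred in no other entry.

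The hairpins show how far the copies are alike beyond the mature strand. In the next lines the capitals mark the longest stretch that a hairpin has in common with another of the 3.
Mir26a-1: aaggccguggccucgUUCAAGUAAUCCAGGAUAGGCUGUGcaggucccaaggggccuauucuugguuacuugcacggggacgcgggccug
Mir26a-2: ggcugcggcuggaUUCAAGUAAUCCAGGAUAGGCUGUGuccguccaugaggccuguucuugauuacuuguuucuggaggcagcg
Mir26b: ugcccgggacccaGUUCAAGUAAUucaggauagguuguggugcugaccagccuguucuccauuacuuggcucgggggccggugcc

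The stretch common to Mir26a-1 and Mir26a-2 was 25 bases, namely the whole 5p strand and the 3 bases after it. Their base just before the 5p strand already differs. Mir26b had at most 11 bases in a row in common with either copy. A read of 22 bases that starts at the 5p start therefore occurs in both miR-26a hairpins, and it takes 26 bases to tell them apart from that start. Among all 2202 annotated hairpins, 10 read starts, from the 5p start onward, needed a read of 17 to 26 bases to be found in 1 miR-26a hairpin alone. A read of 16 bases, the shortest tried, was enough from 1 base before the 5p start and from the 3p start. For Mir26b a read of 16 bases was enough from every start. The mature miR-26a-5p was found in 2 of 141767 annotated transcripts, the hairpins themselves, and miR-26b-5p in 1. The rest of the genome was not searched.

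**Figure D1:**
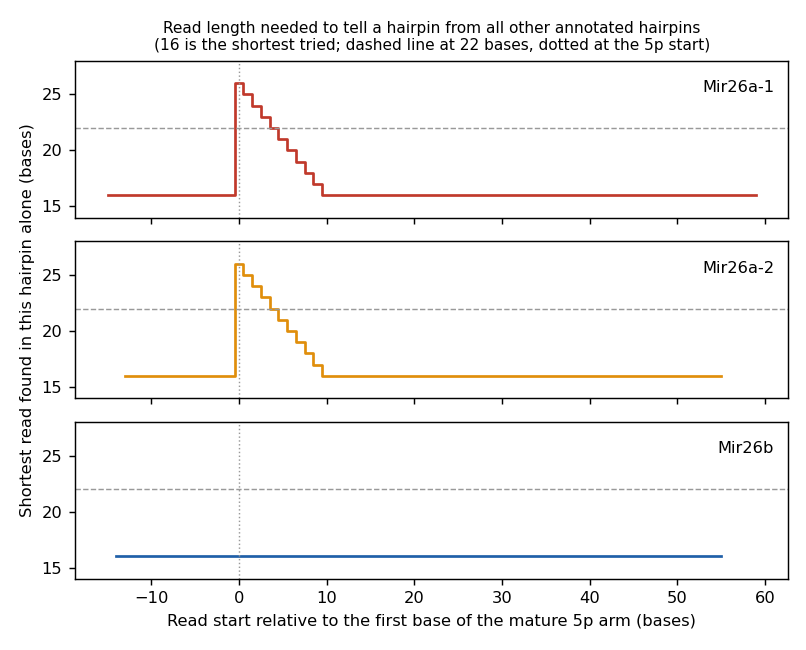
The horizontal axis is the first base of a read relative to the first base of the mature 5p strand, and the vertical axis the shortest read, in bases, that occurs in that hairpin and in no other of the 2202 annotated ones (16 is the shortest tried). For Mir26a-1 and Mir26a-2 the line jumps to 26 at the 5p start and comes down to 17 over 10 starts, and for Mir26b it stays at 16.

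The tables keep reads that mapped to several places in a line of their own, and give them to no gene. That line held 3857758 reads in replicate 1 and 6355706 in replicate 2, which is 1.27 and 1.20 times the reads counted in miRNA genes. How many of them are miR-26a-5p cannot be read from the tables, and counts at a gene do not separate its 5p from its 3p strand. The counts below are therefore those of reads placed at 1 locus. They do not rank mature miR-26a against mature miR-26b.

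In GRCm38 (mm10) with the GENCODE M21 annotation, Mir26b (ENSMUSG00000065468.1) lies on chromosome 1 from 74394310 to 74394394, Mir26a-1 (ENSMUSG00000065513.1) on chromosome 9 from 119031796 to 119031885, and Mir26a-2 (ENSMUSG00000065430.1) on chromosome 10 from 126995530 to 126995613. All 3 are on the plus strand, the strand of their hosts. Mir26b is in intron 4 of the principal transcript of Ctdsp1, an intron of 564 bases. Mir26a-2 is in intron 5 of Ctdsp2 (1946 bases) and Mir26a-1 in intron 5 of Ctdspl (3283 bases). In all 3 hosts the exon before that intron has 57 bases, the exon after it 93 bases and the next exon 186 bases, so the hairpins occupy introns with the same flanking exon lengths. The hosts themselves differ in size, from 5777 bases for Ctdsp1 and 21259 for Ctdsp2 to 117546 for Ctdspl. The hairpins start 2801, 16813 and 105343 bases into the principal transcripts of Ctdsp1, Ctdsp2 and Ctdspl. Shorter Ctdsp2 transcripts, Ctdsp2-201 and Ctdsp2-203, have a first exon that starts on the last base of the Mir26a-2 hairpin, an overlap of 1 base. Ctdsp2 holds another miRNA gene, Mir546, on the same strand, with 0 reads in both libraries, which allows up to 3 reads in each. The table has no miRNA gene in Ctdspl2, the remaining gene of the family by name.

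**Figure D2:**
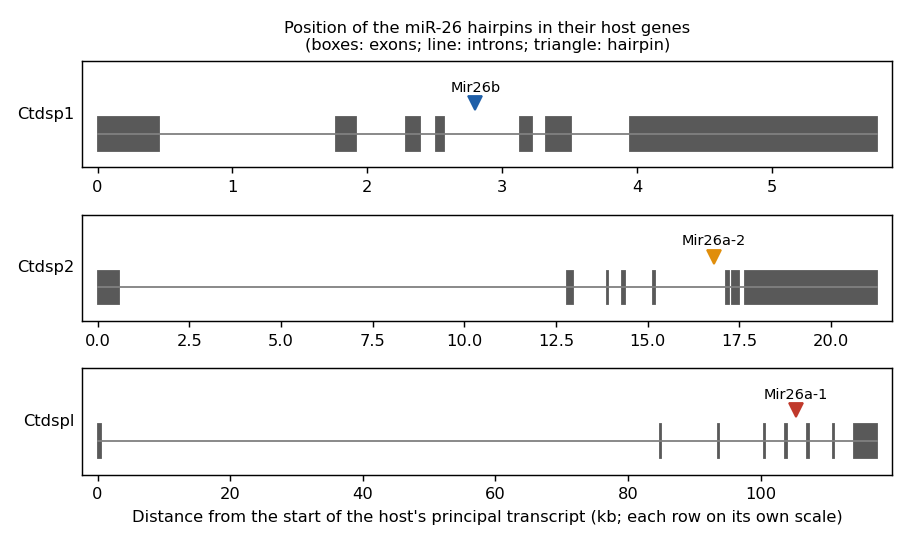
Each row shows the principal transcript of a host gene, with boxes for exons, a line for introns and a triangle for the hairpin, along the distance from the transcript start in kb, on a scale of its own. The hairpins lie 2801, 16813 and 105343 bases from the start, each in the intron after an exon of 57 bases.

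Mir26b held nearly all reads counted for the family. It had 95330 reads in replicate 1 and 112099 in replicate 2. In counts per 1000000 reads in miRNA genes (CPM), this was 31389 and 21213, with a mean of 26301 ± 7195 (SD, n = 2). Mir26a-1 had 44 reads in replicate 1 and 740 in replicate 2, or 14.5 and 140 CPM. For Mir26a-2 the counts were 128 and 573, or 42.1 and 108 CPM. Both miR-26a genes lay far under Mir26b in each library, and their mean levels, 77.3 ± 88.8 and 75.3 ± 46.9 CPM (SD, n = 2 for each), were closer to each other than the spread of either between the libraries. CPM is not divided by length here. The listed mature strands have 21 or 22 bases in all 3 genes, but the lengths of the counted reads are not known. Together the genes took 3.14% of the reads in miRNA genes in replicate 1, with a 95% Wilson interval from 3.12 to 3.16. In replicate 2 they took 2.15% (from 2.13 to 2.16). The mean share was 2.65% ± 0.706 (SD, n = 2). Intervals cover counting error only, since reads need not be separate molecules. On the opposite strand the 3 genes had 1 read in all, at Mir26a-1 in replicate 1.

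**Figure D3:**
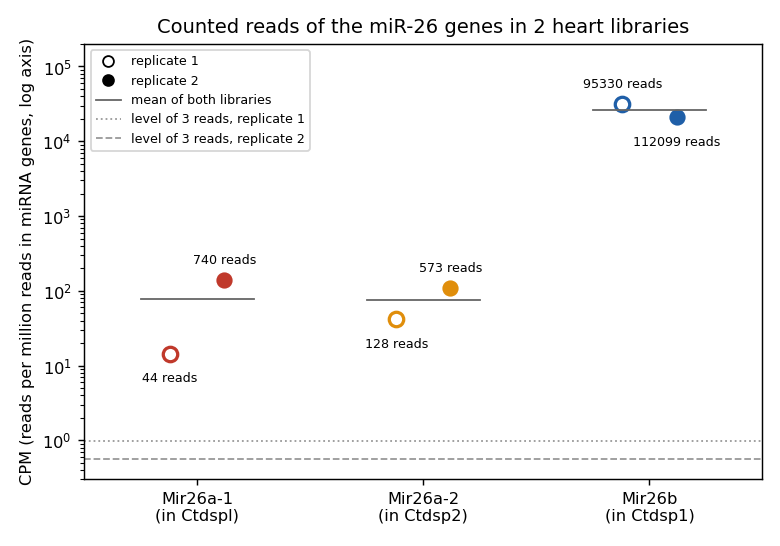
Points are the levels of the 3 genes in CPM on a log axis, open for replicate 1 and filled for replicate 2, with the read count beside each, a line at the mean, and the level of 3 reads in each library. Mir26b lies at or above 21213 CPM in both libraries and the miR-26a genes at or below 140 CPM.

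By mean level Mir26b was the 12th of the 2202 genes, 12th in replicate 1 and 14th in replicate 2. The gene next above it, Mir99a, had 42054 and 31680 CPM in replicates 1 and 2, both above the range of Mir26b. Mir149, next below, had 21593 and 27696 CPM and Mir22, after it, 13626 and 34813, so both overlapped Mir26b and the order of the 3 is not settled by these libraries. Mir29a, the 15th, had 14155 and 19670 CPM, both below Mir26b. Among the 812 genes that lie in a protein-coding gene on its strand and outside the exons of its principal transcripts, Mir26b ranked 6th by mean level. Mir26a-1 ranked 226th among all genes in replicate 1 and 127th in replicate 2, and Mir26a-2 171st and 139th.

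Within a library, where scaling plays no part, the ratio of Mir26b to both miR-26a genes together was 554 in replicate 1 (95330 against 172 reads, exact 95% interval 477 to 647). It was 85.4 in replicate 2 (112099 against 1313 reads, 80.9 to 90.2). On the log2 scale the mean of this ratio was 7.77 ± 1.91 (SD, n = 2), so Mir26b stood above its paralogs by more than the spread between libraries. An exact test over libraries was not made, because with 2 of them its smallest possible p is 0.5. The ratio itself was not the same in the 2 libraries beyond counting error (two-sided Fisher's exact test of 2 libraries, adjusted p = 4.02e-178 over 4 such ratios, odds ratio 6.49). Mir26b alone exceeded Mir26a-1 by 2167-fold in replicate 1 and 151-fold in replicate 2, and Mir26a-2 by 745-fold and 196-fold.

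The order of the miR-26a copies was not the same in the libraries. In replicate 1, Mir26a-1 had fewer reads than Mir26a-2, with a ratio of 0.344 (44 against 128, exact 95% interval 0.238 to 0.488). In replicate 2 it had more, with a ratio of 1.29 (740 against 573, 1.16 to 1.44). Neither interval includes equal counts, and the odds ratio of replicate 2 over replicate 1 was 3.76 (two-sided Fisher's exact test of 2 libraries, adjusted p = 2.07e-14). The mean log2 ratio of Mir26a-1 to Mir26a-2, -0.59 ± 1.35 (SD, n = 2), was smaller than its spread, so these libraries give no order of the copies.

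Between the libraries, both miR-26a genes were higher in replicate 2 and Mir26b was higher in replicate 1. For each gene an exact binomial test (two-sided) took the totals of reads in miRNA genes as given. Its p was adjusted by Benjamini-Hochberg over the 424 genes whose reads in the libraries summed to 10 or more. That test compares 2 libraries beyond counting error and no conditions. In a bulk tissue library, fewer cells of a type and less RNA per cell cannot be told apart. All 3 members differed by it, beside 52.8% of all genes tested, so passing it says little about the family. By direction, 2 of the 3 were higher in replicate 2, against 30.9% of all genes, and 1 was higher in replicate 1, against 21.9%.

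Mir26a-1 was 9.67-fold higher in replicate 2 (exact 95% interval 7.13 to 13.4), a log2 ratio of 3.27 (binomial adjusted p = 3.19e-92). This was the 16th highest ratio of the 424. Mir26a-2 was 2.57-fold higher (2.12 to 3.14), a log2 ratio of 1.36 (binomial adjusted p = 3.47e-25), the 50th highest. Mir26b was 1.48-fold higher in replicate 1 (1.47 to 1.49), a log2 ratio of -0.57 for replicate 2 over replicate 1. It ranked 343rd of the 424 ratios from the highest, with 81 genes below it. The median log2 ratio of all 424 genes was 0.07.

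A second test added a spread common to all genes, the common dispersion of edgeR (a biological coefficient of variation of 40.5%). The same 2 libraries gave both this spread and the difference set against it, so neither a call nor its absence is a replicated result. By the exact test of edgeR with Benjamini-Hochberg adjustment, 1 of the 3 members differed, beside 2.83% of all genes. Mir26a-1 passed it (adjusted p = 0.0254), as 1 of 10 genes higher in replicate 2 (2.36% of the 424 tested). Mir26a-2 did not (adjusted p = 0.897), nor did Mir26b (adjusted p = 1). A p above the threshold does not show that the levels were equal.

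**Figure D4:**
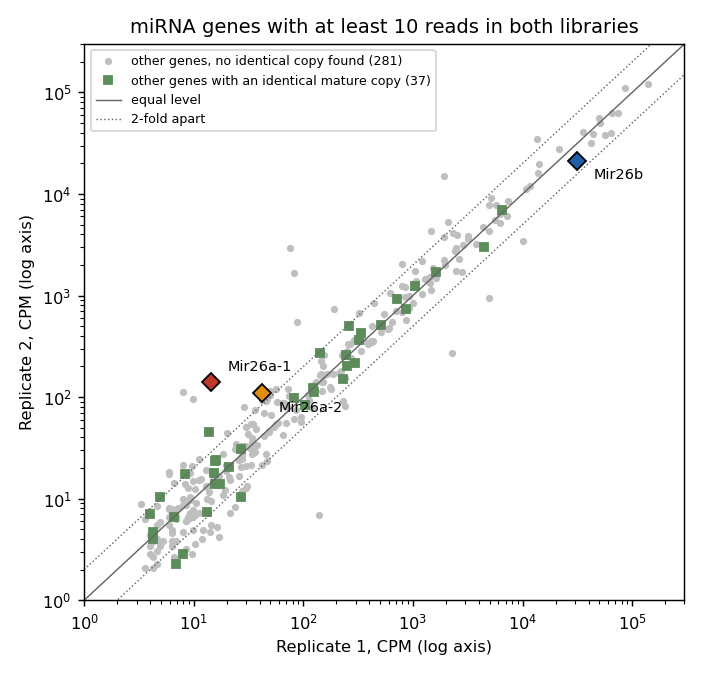
Each point is 1 of the 321 genes that reached 10 reads in each library, at its level in replicate 1 (horizontal) and replicate 2 (vertical) in CPM, both log axes. Diamonds are the miR-26 genes, green squares 37 other genes with an identical mature copy, and dotted lines lie 2-fold from equality. Mir26a-1 and Mir26a-2 lie above the upper dotted line and Mir26b between the lines.

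Some miRNAs of other cell types moved with the libraries. Of 14 epithelial miRNAs, replicate 2 was higher beyond counting error for 10 and replicate 1 for 2, and 7 of the 14 differed by the exact test of edgeR. The shares of all genes tested were 30.9%, 21.9% and 2.83%. Their summed level was 410 CPM in replicate 1 and 7135 in replicate 2, with 1 of them (Mir96) at 0 in replicate 1. In replicate 2 most of the sum came from Mir31, Mir205 and Mir200c. They had 75.1, 2.30 and 82.6 CPM in replicate 1, and 2918, 1963 and 1652 in replicate 2. The 2 that were higher in replicate 1 were Mir200b (32.9 and 21.6 CPM) and Mir429 (19.4 and 12.1). Mir200a and Mir34b were not called. The red blood cell miRNAs Mir144 and Mir451a summed to 7165 and 1219 CPM. Other lists moved less. The 4 leukocyte miRNAs summed to 6557 and 7238 CPM, the 2 of smooth muscle to 45692.5 and 40640.8, and Mir126a of endothelium had 85244 and 109823. The heart muscle list summed to 10834 and 14802 CPM over its 7 genes. Nearly all of this came from Mir208a (5184 and 9154 CPM) and Mir499 (5559 and 5487 CPM), from the cardiac myosin genes. The Mir1a and Mir133a genes of the list had at most 27.7 CPM in either library (Mir1a-2 in replicate 1). These too are counts of reads placed at 1 locus, and they do not give the level of mature miR-1 or miR-133. How many reads of those miRNAs mapped to several places was not tested. Of 6 brain genes, 5 and 4 were at 0 in replicates 1 and 2, and Mir122 of liver had 30.0 and 12.7 CPM. The part of these cell types in the values of the miR-26 genes was not tested.

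The genes whose levels in the 2 libraries lay nearest to each member were found by the distance of log2 CPM over 2 libraries, among 321 genes. Nearest to Mir26a-1 were Mir34c (30 and 500 reads in replicates 1 and 2), Mir183 (24 and 589) and Mir340 (87 and 423), at distances of 0.79, 0.93 and 1.27. Mir34c and Mir183 are on the list of epithelial miRNAs. Nearest to Mir26a-2 were Mir669o (128 and 490 reads), Mir1983 (150 and 555) and Mir503 (142 and 501), at distances from 0.23 to 0.24. Nearest to Mir26b were Mir149, Mir99a and Mir139, at distances of 0.66, 0.72 and 0.96. A pattern over 2 libraries is only a pair of levels, so many genes can lie close by it.

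A low count beside a high single-copy relative was also found in other seed families. There were 15 families of a 5p or 3p seed, with at least 100 reads, in which the strand with that seed has an identical copy in another gene for some members and none in the mature entries for others. In 11 of them both sides averaged more than 3 reads in each library, and in 9 of these 11 the copies lay lower in both libraries, with a median log2 ratio of copies to single-copy genes of -3.01. A gene can be in a family of each strand, and counts do not separate strands. Both let-7 families draw on the same genes, and with each gene in 1 family only, the copies lay lower in 8 of 10 families (median -3.01). With the 4 left-out families included they lay lower in 11 of 15. The miR-26 family had the lowest mean ratio of the 11, with -10.11 in replicate 1, -7.42 in replicate 2 and a mean of -8.77 ± 1.91 (SD, n = 2). Next came the miR-29 family, collagen repressors, in which the mean of Mir29b-1 and Mir29b-2 lay below the mean of Mir29a and Mir29c by -8.30 ± 0.29. Mir29a, with 16912 CPM on average, weighed more in that mean than Mir29c, with 846. Then came the miR-103/107 family of the Pank genes, coenzyme A synthesis enzymes. There the mean of Mir103-1 and Mir103-2 lay below Mir107 by -6.93 ± 0.34 (SD, n = 2 for each family). In replicate 2 the miR-29 family, at -8.09, was below miR-26, so the order of those 2 families is not settled. The mean of Mir30c-1 and Mir30c-2 lay below the mean of Mir30a, Mir30e and Mir384 by -3.01 ± 0.24. Mir30d (42197 and 85516 reads in replicates 1 and 2) and Mir30b (1087 and 1880) had no matched mature entry and were not among them. The copies of let-7 lay below the single-copy genes of their seed, mean against mean, by -3.56 ± 0.09 for the 5p seed and -4.23 ± 0.27 for a 3p seed. Among the mature entries matched by symbol, Mirlet7a-1 and Mirlet7f-1 counted as copies for 1 of these seeds and as single-copy for the other. No entry with the 5p seed was matched to Mirlet7a-2, so an identical copy there would not be seen. When a shared stretch of 22 bases anywhere in the hairpin defined a copy, Mirlet7a-1 and Mirlet7f-1 were copies in both families. The values were then -3.93 ± 0.11 and -5.26 ± 0.26. By that rule Mir29c was a copy too, and the miR-29 value was -5.84 ± 0.22, while that of miR-26 stayed at -8.77. The other direction was found too: the mean of Mir92-1 and Mir92-2 lay above the mean of Mir25 and its relatives by 3.83 ± 0.25. Mir92-1 had 13526 and 15938 reads in replicates 1 and 2. Mir92-2, with 906 and 1138 reads, lay below Mir25 (1951 and 2879) in both. This family was named after its values were seen, as was miR-29. The 4 families left out went both ways. In 2 the copies were the lower side, with no read at Gm27740 and Gm27775 beside Mir149 and its relatives, and 0 and 1.42 CPM on average at the Mir196a copies beside 45.4 and 91.8 CPM at Mir196b. In the other 2 the single-copy genes were at 0 in both libraries, beside 187 and 156 CPM on average at the Mir24 copies and 5.93 and 6.34 CPM at the Mir218 copies.

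**Figure D5:**
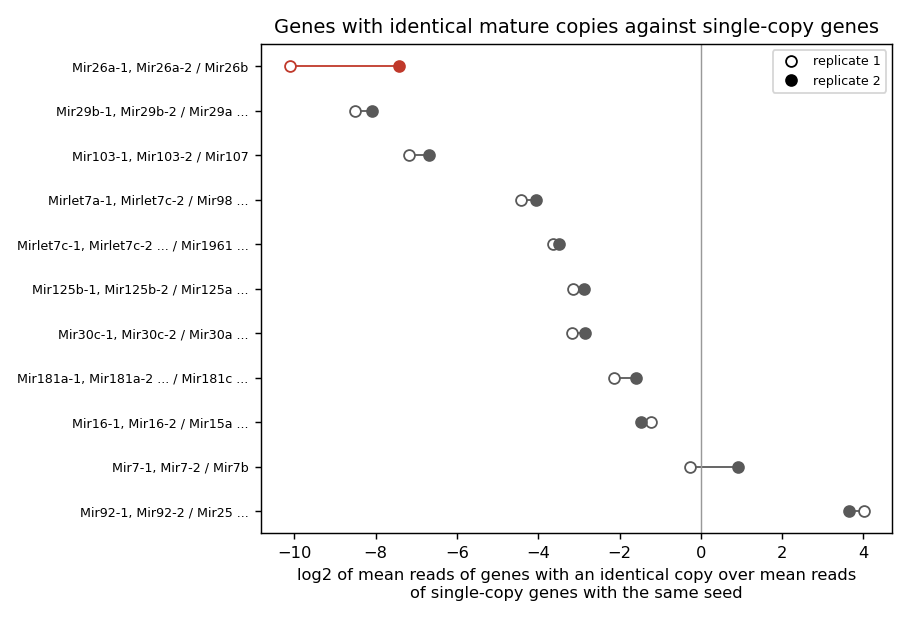
Each row is a seed family, named by its genes with identical mature copies and then its single-copy genes, and the horizontal axis is the log2 ratio of their mean reads, open for replicate 1 and filled for replicate 2. The miR-26 family (red) is at -10.11 and -7.42, the lowest of the 11 families by mean and in replicate 1, with the miR-29 family lower in replicate 2 (-8.09).

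Between the libraries, genes with an identical copy differed in both directions. Of 46 such genes tested, 19 (41.3%) had the higher level in replicate 2 and 10 (21.7%) in replicate 1, and the median log2 ratio was 0.12. Of 328 genes with a mature entry and no copy found among the matched entries, 96 (29.3%) and 75 (22.9%) did, with a median of 0.02. A gene whose copy lies in a gene without a matched entry can fall among the 328. Genes without an entry, such as Mir1a-2, Mir133a-1 and Mir133a-2, are in neither class. Mir26a-1 had the third highest ratio of the 46, after Mir196a-2 (0 and 15 reads) and Mir103-1 (0 and 11 reads), and Mir26a-2 the seventh. Of the 46, the exact test of edgeR called 1, Mir26a-1, beside 11 of the 328 and 2.83% of all genes tested.

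MiRNAs in other paralogous hosts gave a setting for the Ctdsp introns. Of 12 such genes, replicate 2 was higher for 6 and replicate 1 for 3 beyond counting error, and 3 were not called, while of all genes tested 30.9% were higher in replicate 2 and 21.9% in replicate 1. By the exact test of edgeR 0 of the 12 differed, and the median log2 ratio was 0.40. Mir153, in Ptprn2, and Mir33, in the sterol regulator Srebf2, were not called, with log2 ratios of -1.80 and -0.58. In the Pank genes, Mir107 had 579 and 3924 reads (log2 ratio 1.96), Mir103-2 had 8 and 65 (2.22) and Mir103-1 had 0 and 11. Here all 3 genes of the family were higher in replicate 2, unlike the miR-26 genes, of which the single-copy gene was lower. In the R3hdm1 and Arpp21 genes, the copies Mir128-1 (697 and 790 reads) and Mir128-2 (82 and 55) were both higher in replicate 1, with log2 ratios of -0.62 and -1.38. The copies in the Slit genes went apart, with Mir218-1 at 21 and 12 reads (-1.61) and Mir218-2 at 15 and 55 (1.08). In the myosin genes, Mir208a and Mir208b were higher in replicate 2 (0.82 and 1.21) and Mir499 was not called (-0.02).

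Among 26 miRNAs known from heart growth and fibrosis, the binomial test was run on 25. It called 12 with the higher level in replicate 2 and 3 with the higher level in replicate 1, and left 10 without a call, beside 30.9% and 21.9% of all genes tested in those directions. Their median log2 ratio was 0.25, and 1 passed the exact test of edgeR, Mir21a (1899 and 15190 CPM, adjusted p = 0.0366), a miRNA raised in many injured tissues. Mir26b shared its direction with Mir23a (-0.69), Mir195a (-0.51) and Mir24-2 (-0.31), the 3 that were higher in replicate 1. Mir29a, Mir29c, Mir30d and Mir22 had log2 ratios of 0.47, 0.78, 0.22 and 1.35. Of copies in this list, Mir29b-1 had 42 and 238 reads (1.70) and was called, while Mir29b-2, with 82 and 164 (0.20), was not. Mir30c-1 (0.33) and Mir30c-2 (0.25) were called higher in replicate 2, and Mir24-2 higher in replicate 1. Mir24-1 (-0.17) and Mir199a-2 (0.83) were not called, and Mir199a-1 was not tested.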

How the data were processed

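Per the text deposited beside each table and the labels, the authors aligned reads to mm10 (GRCm38) and deposited whole-number read counts per miRNA gene of GENCODE M21, 1 table of 3 count columns (either strand and each strand alone) per library. Aligner and counter: not given in the sources used here. Column 3, the strand with more reads in miRNA genes, was used. The libraries held 3037063 and 5284446 reads in miRNA genes, or 32.1% and 27.0% of all reads. Unmapped reads were 19.4% and 34.3%, reads mapped to several places 40.7% and 32.5%, and reads outside miRNA genes 7.79% and 6.27%. None of these lines entered the library sizes or tests, except in an alternative scaling. The floor, 3 reads, was 0.988 and 0.568 CPM.

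All 2202 IDs matched GENCODE. RefSeq mature miRNAs matched 1018 genes by symbol, of which 92 shared an identical mature sequence with another gene. A copy in a gene without a matched entry was not seen, so 92 can be too few. With 1 group no model of group means was possible, so edgeR 4.0.16 was used for its exact test with the common dispersion and TMM scaling (dispersion from the 321 genes that reached 10 reads in each library, test on the same 424 genes as the binomial test), DESeq2 1.42.0 for size factors, and scipy 1.17.1 for binomial and Fisher tests, at a threshold of 0.05. A count of 0 was set to 0.5 reads in log2 ratios. The named genes were the members, genes with their seed, the 3 nearest to each member by level, both gene lists and the 5 seed families with the most reads. Lists of cell type markers, which hold Mir144, Mir451a and Mir122, were a separate set. Mir196a-2, Mir196b, Mir96 and the miR-29 and miR-92 families as such were singled out after their values were seen. So were Mir30b and the epithelial miRNAs named beside Mir96. Members and lists were chosen with earlier results of these data known. Seed families at the floor were left out, and a count with each gene in 1 family added, after the data were seen. Other scalings, filters, the other column, another copy rule and single libraries were tried.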

Additional observations from a re-analysis of the deposited data

Results flagged for a closer look

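Outside the counts per gene, the line for reads that mapped to several places held 3857758 reads in replicate 1 and 6355706 in replicate 2, for all sequences together. A read that holds only the mature miR-26a-5p occurs in both miR-26a hairpins. How many of these reads are miR-26a-5p was not tested, since the tables give no sequences.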

How the results depend on the processing

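Of 37 values under other settings with both libraries kept, 32 kept their direction and their side of the threshold, or moved by less than the spread between libraries. Another 14 values left out 1 library. A mean of 2 always moves by less than their SD then, so these show only the values of each library and say nothing of stability. By the exact test of edgeR, Mir26a-2 (1.34) and Mir26b (-0.59) kept their direction and were no longer called, with adjusted p values of 0.897 and 1, and 12 genes in place of 224 differed. That test adds the spread between libraries to counting error. The ratio of Mir26a-1 to Mir26a-2 (mean log2 -0.59) turned to 0.37 without replicate 1 and was -1.54 without replicate 2. The share of the family became 1.18% with reads mapped to several places in the total and 3.57% in the either-strand column, where the total is smaller. TMM and DESeq2 size factors moved all log2 ratios by -0.03 and -0.02. With 1 library left, no test between libraries can be made. No paired analysis was possible because there is 1 group.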
